A study of Mus musculus with 16 samples.

Results

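The genes described here encode the receptor for lipopolysaccharide (LPS), a part of the outer membrane of bacteria, the proteins that hand LPS to it, 4 further Toll-like receptors and both main adaptors of the family. They were taken by gene symbol, as Tlr4, Ly96, Cd14, Lbp, Tlr1, Tlr2, Tlr3, Tlr9, Myd88 and Ticam1, and all 10 were found among the 54532 genes of each table. RNA-seq was performed in bulk on pulmonary endothelial cells (ECs) in 2 experiments. In the first, male WT C57/BL6J mice of 8 weeks received saline (n = 4) or 10 mg/kg LPS (n = 6) into the trachea. In the second, every mouse received 2 mg/kg LPS and carried floxed Fgfr1, and the groups were Fgfr1 loxP/loxP mice (n = 3, the control) and Fgfr1 iΔEC/iΔEC mice (n = 3), which also carry the VE-cadherin-CreERT2 transgene. Both genotypes had been given tamoxifen, which switches on the recombinase in cells with an active VE-cadherin promoter, so that the deletion is meant to be limited to ECs. The paper calls the Fgfr1 iΔEC/iΔEC mice adult, and no age in weeks is given for this experiment in the sources used here. Lungs were taken 24 h after instillation in all groups. The digested lung was depleted of cells carrying CD45, a surface protein of leukocytes, and cells carrying CD31 were then selected on magnetic beads, and each library is labelled as a separate sample. Values are FPKM, in which the fragments of a gene are divided by transcript length and by a size factor of the library. In the deposited values that factor followed the median of ratios over genes and not the number of reads. Reads assigned to genes ranged from 13478726 to 18807007 in the saline libraries, 17840221 to 19043015 in the LPS libraries, 15969575 to 17002788 in the loxP/loxP libraries and 16642177 to 16943522 in the iΔEC/iΔEC libraries.

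LPS-binding protein, encoded by Lbp and best known as a plasma protein of the liver, takes LPS from aggregates and passes it to CD14, which hands it to MD-2, the product of Ly96, held in the pocket of TLR4. TLR2 pairs with TLR1 or TLR6 to sense bacterial lipopeptides, and TLR3 and TLR9 sense double-stranded RNA and unmethylated CpG DNA inside endosomes. MyD88 carries the signal of TLR4 and of every other Toll-like receptor except TLR3 toward NF-κB, whereas TRIF, the product of Ticam1, serves TLR3 and internalized TLR4 and leads to type I interferon. Monocytes, macrophages and neutrophils are rich in TLR4, CD14 and TLR2, and ECs of the lung also express TLR4.

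The RefSeq promoter table, on GRCm38.p6, held 7 starts of 6 of these genes (Tlr1, Tlr2, Tlr3, Tlr9, Myd88 and Ticam1). The 250 bases before each start were searched on both strands for the κB consensus bound by NF-κB and for GAAA followed after 2 further bases by GAAA and for TGANTCA, which resemble sites of interferon regulatory factors and of AP-1. The κB consensus was matched in 7.25% of all 32851 promoter windows, the doubled GAAA in 2.98% and TGANTCA in 6.75%. Of the 7 starts, those of Tlr2 and Tlr3 held a κB match, that of Myd88 held the doubled GAAA and that of Tlr9 held TGANTCA, and Tlr1 and Ticam1 had no match to these letters in this window. Windows of Tlr2, Tlr9 and Myd88 are shown because their genes rose with LPS, each cut to bases outside annotated exons, read on the strand of the gene, with the match in capitals. The Tlr2 stretch lies at chr3:83841768-83841841 on the minus strand, next to the 5′ end of the gene, the Tlr9 stretch at chr9:106222480-106222597 on the plus strand, next to its first base, and the Myd88 stretch at chr9:119340042-119340118 on the minus strand, within the annotated span of the gene. In Tlr2 the capitals join overlapping κB matches, on both strands, from 173 to 163 bases before the start. In Tlr9 the match lies 58 to 52 bases before the start, and in Myd88 40 to 31 bases before it. In Tlr3 the matched bases were GGGAGTTTCC, at chr8:45410582-45410591 on the minus strand, within an annotated exon. A match of letters describes the sequence and does not show that a factor binds there.
Tlr2: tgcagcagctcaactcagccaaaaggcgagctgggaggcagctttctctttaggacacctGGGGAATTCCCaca
Tlr9: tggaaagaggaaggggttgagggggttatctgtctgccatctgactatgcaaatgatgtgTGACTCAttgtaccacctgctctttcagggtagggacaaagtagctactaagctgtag
Myd88: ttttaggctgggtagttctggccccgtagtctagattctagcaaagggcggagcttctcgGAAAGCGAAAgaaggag

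The bead fraction was checked against marker genes before these genes were compared. Endothelial markers were abundant in every library, with Pecam1, the gene of CD31, at 400.3 ± 81.5 FPKM in saline (SD, n = 4) and 358 ± 76.8 FPKM in LPS (SD, n = 6). Ptprc, the gene of CD45, was nevertheless detected, at 6.97 ± 3.13 FPKM in saline (SD, n = 4), and it rose to 34.6 ± 11.4 FPKM in LPS (SD, n = 6; log2 fold change 2.19, limma adjusted p = 0.000112). In 2 saline libraries the markers stood apart from the rest of the group. Saline 1 had a neutrophil marker sum of 1412 FPKM, while saline 2 to 4 ranged from 77.4 to 319 FPKM. It also had the highest sum of the saline group in every other marker list except the B cell and dendritic lists, with 5429 FPKM against at most 4066 FPKM for the endothelial, 229 against at most 154 FPKM for the leukocyte, 1116 against at most 735 FPKM for the monocyte and macrophage and 57.0 against at most 21.4 FPKM for the T and NK cell list, and it had the fewest reads. Saline 3 had a B cell marker sum of 29.1 FPKM beside 152 to 197 FPKM in the rest. Among the 10 genes, saline 1 was the highest saline library in 4 and the lowest in 4, and saline 3 was the highest in 3 and the lowest in 4.

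In LPS over saline, 6 of the 10 genes rose, namely Cd14, Tlr2, Tlr1, Myd88, Tlr9 and Ly96, and 0 fell. A call needed both an adjusted p (limma, Benjamini-Hochberg) of 0.05 or less and a log2 fold change of 1 or more in size on log2(FPKM + 1), a scale that understates the change of low genes. Of the 14893 genes tested, 11.9% were called higher and 6.79% lower (18.7% in either direction). At an adjusted p at or under 0.05 with any fold, 8 of the 10 were higher and 2 lower, where 29.5% and 23.7% of all genes were, and all 10 had an unadjusted p under 0.05, as 59.6% of all genes did. The groups did not overlap in 7 genes that were higher and in 1 that was lower, against 22.7% and 16.7% of all genes (39.4% in either direction). The median log2 fold change of the 10 was 1.47 beside 0.01 over all genes tested. In bulk RNA a change in the number of cells of a type and a change in RNA per cell cannot be told apart.

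**Figure D1:**
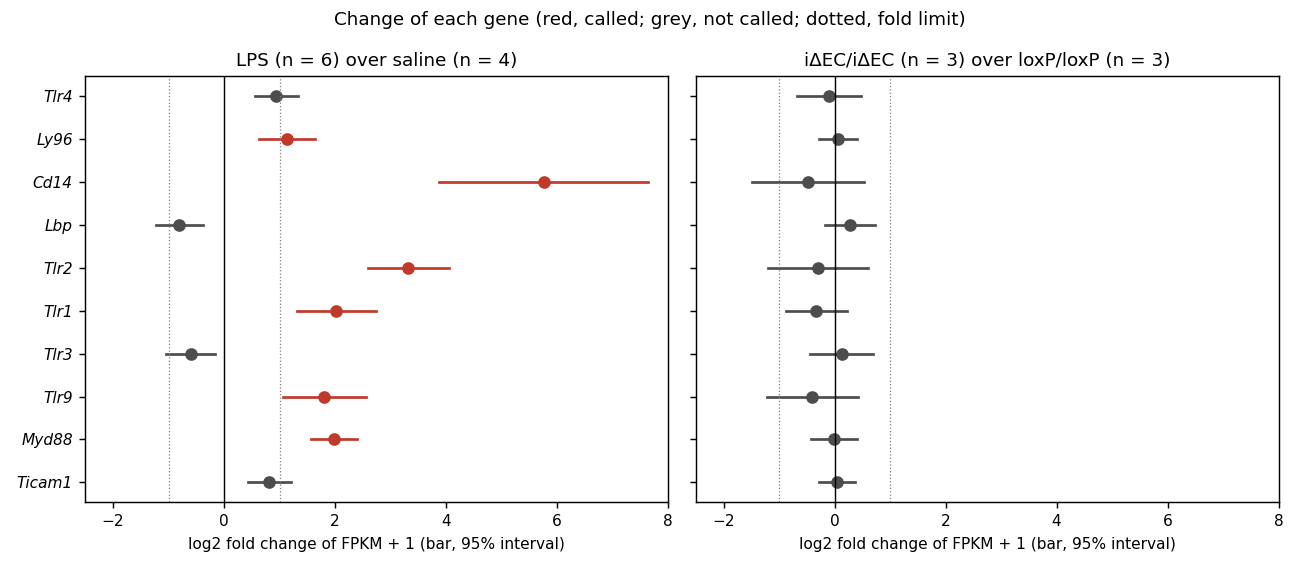
Log2 fold change of FPKM + 1 for the 10 genes (points) with the 95% interval from limma (bars), for LPS over saline on the left and iΔEC/iΔEC over loxP/loxP on the right, with dotted lines at a log2 fold change of 1 in either direction. On the left the 6 red genes were called, with Cd14 farthest at 5.76, and Lbp and Tlr3 lie below 0 (scaling on the endothelial markers brings Tlr3 to 0.01, Lbp to -0.16 and the median of all genes to 0.57), and on the right, drawn without the replicate block, every interval crosses 0.

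Tlr4 (ENSMUSG00000039005, GRCm38 chromosome 4, plus strand, 66827584 to 66930284), the signaling receptor for LPS, was at 2.84, 3.34, 4.14 and 3.01 FPKM in saline 1 to 4, from 209 to 411 reads. In the LPS libraries it ranged from 5.66 to 11.2 FPKM with a median of 6.83 FPKM. Every LPS library was above every saline library, and the mean was 2.23 times as high. Its log2 fold change of 0.94 (SE 0.17, limma adjusted p = 0.00113) had a two-sided exact permutation p of 0.00476, which is as small as 4 against 6 libraries allow, so Tlr4 passed the adjusted p and stayed just under the fold limit. It passed that limit without saline 3 (1.02), without LPS 5 (1.00), with a pseudocount of 0.1 FPKM (1.11) and with limma-voom on read numbers (1.13). LPS 1, at 11.2 FPKM, was the highest library.

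Ly96 (ENSMUSG00000025779, chromosome 1, plus strand, 16688051 to 16709611), which encodes MD-2, the LPS-binding partner of TLR4, was at 3.11, 4.43, 6.31 and 3.43 FPKM in saline 1 to 4. Its LPS libraries ranged from 7.34 to 18.2 FPKM, with a median of 9.76 FPKM. The groups did not overlap, and LPS 2 was far above the other LPS libraries, of which the next was at 10.4 FPKM. Ly96 rose by 1.13 on the log2 scale (SE 0.23, limma adjusted p = 0.00176; exact permutation p = 0.00476). Its call rested on LPS 2, since without it the change was 0.98 (limma adjusted p = 0.0013) and under the fold limit, and scaling on total FPKM also took it under that limit (0.84). The transcript is short, and 42 to 115 reads lie behind the saline values.

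Cd14 (ENSMUSG00000051439, chromosome 18, minus strand, 36725074 to 36726736), the co-receptor that delivers LPS to TLR4 and MD-2, had the largest rise of the 10 and the 9th largest log2 fold change of all 14893 genes tested. It was at 95.7 FPKM in saline 1 and at 2.16, 3.42 and 2.46 FPKM in saline 2 to 4. In LPS it ranged from 218 to 864 FPKM, with a median of 401 FPKM. All LPS libraries were above all saline libraries, and saline 1 stood between the groups, 35.7 times as high as the mean of the other saline libraries. Its log2 fold change was 5.76 (SE 0.86, limma adjusted p = 0.000268; exact permutation p = 0.00476), and without saline 1 it was 6.94. Against the mean of saline 2 to 4 the LPS mean was 186 times as high. The high Cd14 value of saline 1 came with the high marker sums of that library, among them that of neutrophils, and also with the highest Tlr2, Ticam1 and Lbp values of the saline group. Genes downstream of the receptors were high there too, with a sum over the genes induced by MyD88 or TRIF of 551 FPKM (78.2 to 137 FPKM in saline 2 to 4) and over the genes that restrain the pathway of 1302 FPKM (298 to 324 FPKM). The part of any cell type, or of induction in it, in the Cd14 reads of saline 1 was not tested.

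Lbp (ENSMUSG00000016024, chromosome 2, plus strand, 158306493 to 158332852), which encodes the LPS transfer protein, was lower in LPS. It was at 16.4, 13.1, 11.2 and 14.5 FPKM in saline 1 to 4, and in LPS it ranged from 4.72 to 10.4 FPKM, with a median of 7.69 FPKM. The groups did not overlap. Its log2 fold change was -0.81 (SE 0.19, limma adjusted p = 0.00451; exact permutation p = 0.00952), which is under the fold limit and was past it with quantile normalization (-1.02) and with scaling on total FPKM (-1.13). With the libraries scaled on the endothelial markers it was -0.16 (limma adjusted p = 0.499), where the median of all genes moved to 0.57. Hepatocyte markers were close to absent, with a summed level over Alb, Apoa1, Ttr and Serpina1a of at most 0.69 FPKM in the saline and 0.163 FPKM in the LPS libraries and with Serpina1a at 0 in all of them. Lbp itself had a mean of 13.8 ± 2.21 FPKM in saline (SD, n = 4), and its cell of origin was not tested.

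**Figure D2:**
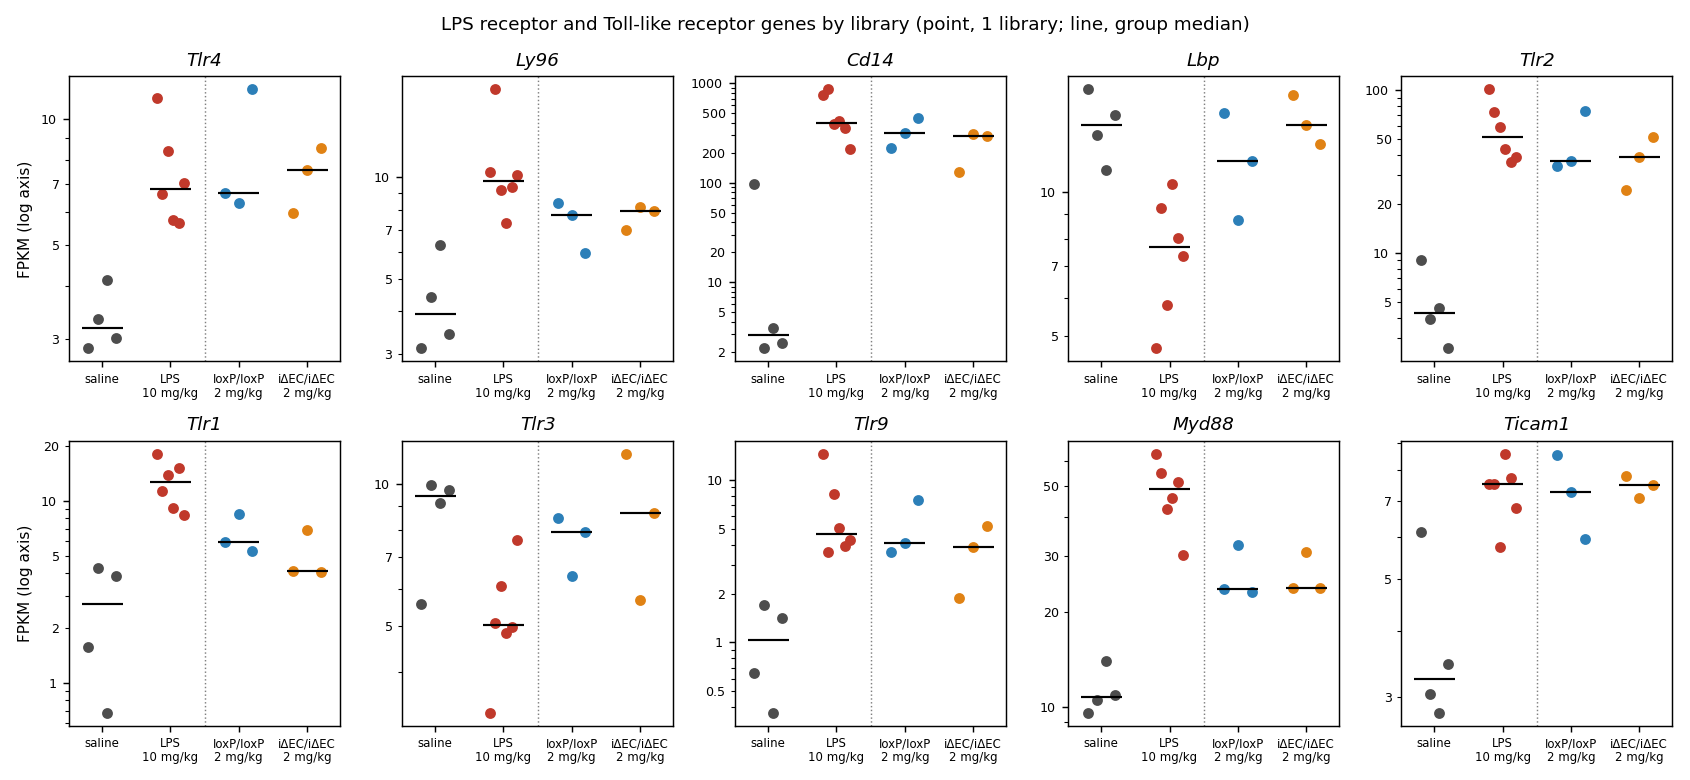
FPKM (log axis) of each of the 10 genes in every library (points), with the group median as a line, for saline, 10 mg/kg LPS, and loxP/loxP and iΔEC/iΔEC mice at 2 mg/kg LPS; the dotted line parts the experiments, whose tables were normalized separately. Cd14 in saline 1 (95.7 FPKM) and Ly96 in LPS 2 (18.2 FPKM) stand apart from their groups, and both genotypes overlap in all 10 genes.

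Of the 4 receptors for other ligands among the 10 genes, Tlr2 had the largest rise. Tlr2 (ENSMUSG00000027995, chromosome 3, minus strand, 83836272 to 83841767), the lipopeptide receptor whose promoter stretch with the κB match is shown above, was at 9.0, 3.93, 4.59 and 2.60 FPKM in saline 1 to 4. In LPS it ranged from 36.0 to 101 FPKM, with a median of 51.6 FPKM. The lowest LPS library was well above the highest saline library, and the mean was 11.7 times as high. Tlr2 rose by 3.32 on the log2 scale (SE 0.33, limma adjusted p = 1.97e-05; exact permutation p = 0.00476), and the value stayed between 3.10 and 3.59 when any single library was left out.

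Tlr1 (ENSMUSG00000044827, chromosome 5, minus strand, 64924679 to 64933563), the partner of TLR2 for triacylated lipopeptides, was at 1.58, 4.27, 0.686 and 3.86 FPKM in saline 1 to 4. Its LPS libraries ranged from 8.30 to 18.1 FPKM, with a median of 12.6 FPKM. The saline libraries were spread widely, with saline 1 and 3 low, and all of them were below the LPS group. Tlr1 rose by 2.02 on the log2 scale (SE 0.32, limma adjusted p = 0.000422; exact permutation p = 0.00476).

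Tlr9 (ENSMUSG00000045322, chromosome 9, plus strand, 106222598 to 106226883), the endosomal receptor for CpG DNA, had the lowest mean of the 10 in saline. It was at 0.652, 1.70, 0.370 and 1.42 FPKM in saline 1 to 4, on 23 to 131 reads, and from 3.60 to 14.5 FPKM in LPS, with a median of 4.65 FPKM. As with Tlr1, saline 1 and saline 3 were the low libraries, and LPS 1 was the high one. Saline 3, the lowest library for both genes, was also the one with the low B cell marker sum and the lowest saline leukocyte sum (66.0 FPKM). Saline 1, the other low library, had a B cell sum of 152 FPKM. The part of B cells in the Tlr1 and Tlr9 values was not tested. Tlr9 rose by 1.80 on the log2 scale (SE 0.34, limma adjusted p = 0.00121; exact permutation p = 0.00476), while the ratio of the mean FPKM was 6.37.

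Tlr3 (ENSMUSG00000031639, chromosome 8, minus strand, 45395665 to 45411080), the receptor for double-stranded RNA, was lower in LPS, except with the libraries scaled on the endothelial markers, where its log2 fold change was 0.01. That scaling moved the median of all genes to 0.57. It was at 5.57, 9.96, 9.14 and 9.74 FPKM in saline 1 to 4. In LPS it ranged from 3.29 to 7.62 FPKM, with a median of 5.04 FPKM. The groups overlapped because of saline 1, which lay within the LPS range. With all libraries the log2 fold change was -0.61 (SE 0.20, limma adjusted p = 0.0249; exact permutation p = 0.0333), under the fold limit, and without saline 1 it was -0.78 with groups apart. Leaving out saline 2, 3 or 4 took the limma adjusted p above 0.05 (0.0758, 0.061 and 0.0731), and so did dropping the filter on low values (0.0594). Tlr3 shares exon bases with the antisense gene Gm45542, which was listed at 0 in all groups.

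Of the adaptors, Myd88 (ENSMUSG00000032508, chromosome 9, minus strand, 119335934 to 119341411) was the one called. It was at 9.63, 10.5, 14.0 and 11.0 FPKM in saline 1 to 4, and in LPS it ranged from 30.3 to 63.2 FPKM, with a median of 48.8 FPKM. Myd88 rose by 1.98 on the log2 scale (SE 0.19, limma adjusted p = 1.44e-05; exact permutation p = 0.00476), the smallest adjusted p of the 10 genes. The lowest LPS library was above the highest saline library by a wide margin. Exons of Myd88 overlap those of Acaa1a on the opposite strand, which was at 21.3 ± 1.65 FPKM in saline (SD, n = 4) and 31.4 ± 6.98 FPKM in LPS (SD, n = 6), and since the strandedness of the counting is not given, reads in the shared bases cannot be told apart.

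Ticam1 (ENSMUSG00000047123, chromosome 17, minus strand, 56269319 to 56276786), which encodes TRIF, moved less. It was at 6.11, 3.04, 2.81 and 3.46 FPKM in saline 1 to 4, and in LPS it ranged from 5.74 to 8.58 FPKM, with a median of 7.52 FPKM. Saline 1 lay within the LPS range, and the other saline libraries lay below it. Ticam1 had a log2 fold change of 0.81 (SE 0.17, limma adjusted p = 0.00258; exact permutation p = 0.00952), under the fold limit, and it passed that limit without saline 1 (1.01) and with limma-voom (1.02).

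Since both values of a ratio come from the same library, ratios between these genes do not depend on how the libraries were scaled. In all, 5 ratios were tested on the log2 scale by exact permutation (two-sided), with p-values adjusted over the 5. The Tlr2:Tlr4 ratio was 3.17, 1.18, 1.11 and 0.863 in saline 1 to 4 and 5.54 to 11.1 in LPS, with a median of 7.33. The groups did not overlap, and the difference in mean log2 ratio was 2.47 (exact permutation p = 0.00476, adjusted 0.0159). The Cd14:Tlr4 ratio was 0.645, 0.826 and 0.816 in saline 2 to 4 but 33.7 in saline 1, above the lowest LPS library at 31.0. Its difference was 4.98 (exact permutation p = 0.00952, adjusted 0.0159; 4.45 to 6.35 with 1 library left out), with a median of 64.5 in LPS. The Ly96:Tlr4 ratio, which sets the binding partner against the receptor, had medians of 1.23 in saline and 1.36 in LPS, and the difference of 0.18 was within the spread of the libraries (exact permutation p = 0.595, adjusted 0.595). Without LPS 2, where the ratio was 2.75, the difference was -0.0072. The Tlr2:Tlr1 ratio differed by 1.03 on the log2 scale, within the spread (exact permutation p = 0.262, adjusted 0.327), with saline 1 and saline 3 at 5.69 and 6.69 and saline 2 and saline 4 at 0.920 and 0.673. That difference was 1.57 without saline 3 and 1.49 without saline 1, but 0.61 without saline 2 and 0.46 without saline 4. For the adaptors, the Ticam1:Myd88 ratio was 0.635, 0.288, 0.201 and 0.316 in saline 1 to 4 and 0.119 to 0.224 in LPS. TRIF transcript fell relative to MyD88 transcript, by 1.08 on the log2 scale (exact permutation p = 0.00952, adjusted 0.0159), although saline 3 lay within the LPS range.

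**Figure D3:**
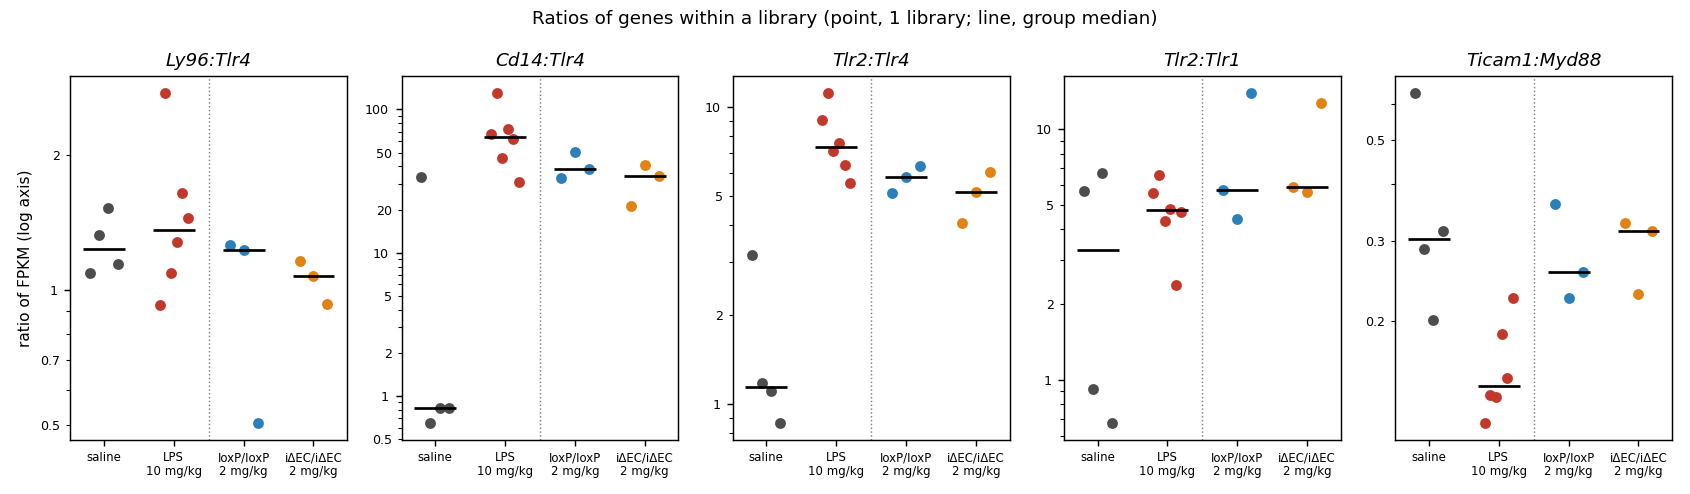
Ratio of the FPKM of 2 genes within each library (points, log axis), with the group median as a line, for the same 4 groups, the dotted line parting the experiments. In LPS, Tlr2:Tlr4 is above all saline libraries and Ticam1:Myd88 has a median of 0.143 against 0.302 in saline, whereas Ly96:Tlr4 has medians of 1.23 and 1.36.

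Because FPKM is scaled by length, the levels of different genes can be set in order. In saline the order of the mean level ran from Cd14, where saline 1 sets the mean, through Lbp (13.8 FPKM), Myd88 (11.3 FPKM), Tlr3 (8.60 FPKM), Tlr2 (5.03 FPKM), Ly96 (4.32 FPKM), Ticam1 (3.86 FPKM), Tlr4 (3.33 FPKM) and Tlr1 (2.60 FPKM) to Tlr9 (1.04 FPKM), and the library ranges of every pair of neighbours overlapped. In LPS, Cd14 (498 FPKM) was apart from Tlr2 (58.8 FPKM) below it, and Myd88 (48.1 FPKM) was apart from Tlr1 (12.6 FPKM). The remaining neighbours, from Tlr1 through Ly96 (10.8 FPKM), Lbp (7.59 FPKM), Tlr4 (7.45 FPKM), Ticam1 (7.31 FPKM) and Tlr9 (6.59 FPKM) to Tlr3 (5.32 FPKM), had overlapping ranges. Without saline 1 the saline mean of Cd14 was 2.68 FPKM, below those of Tlr4 and Tlr1 (2.94 FPKM for Tlr1), and Lbp led the order (12.9 FPKM). Tlr3 was last in LPS.

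Markers shared by leukocytes and those of monocytes, macrophages and neutrophils mostly rose, as 6 of the 10 genes did, whereas Lbp and Tlr3 were lower and B cell markers did not rise. The marker counts are given beside 11.9% of all genes tested called higher and 6.79% called lower. All 6 leukocyte markers rose, and their sum went from 66.0 to 229 FPKM across the saline libraries to 632 to 1534 FPKM across the LPS libraries, with Coro1a the most abundant. Of the monocyte and macrophage markers 7 of 8 rose, with sums of 375 to 1116 FPKM in saline and 1869 to 4026 FPKM in LPS, most of it from Lyz2. Of the neutrophil markers 5 of 8 rose, with sums of 77.4 to 1412 FPKM and 1296 to 6676 FPKM and S100a9 the most abundant, and the groups overlapped only through saline 1. Among the 6 dendritic cell markers, Itgax was the one of the 2 tested that rose. In the other direction, 3 of 10 endothelial markers (Kdr, Tek and Tie1) and 4 of 5 B cell markers fell. At a limma adjusted p at or under 0.05 with any fold, 6 of the 10 endothelial markers were lower, as 23.7% of all genes were. Groups were apart and lower in 6 of the 10, against 16.7% of all genes. The endothelial sum was 3276 to 5429 FPKM in saline and 1434 to 3382 FPKM in LPS, with Cldn5 the most abundant, and the B cell sum was 29.1 to 197 FPKM and 22.0 to 68.6 FPKM, with Cd79a the most abundant.

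The change of each gene was also set beside the mean change of a marker list, as a description without a test. The monocyte and macrophage list was higher by 3.28 in mean log2(FPKM + 1) and the leukocyte list by 2.83. Tlr2 moved nearly as far as the monocyte and macrophage list, with a difference of 0.03, and Cd14 moved farther than it by 2.48. The other 8 genes were all below that list, with differences of -1.26 for Tlr1, -1.31 for Myd88, -1.48 for Tlr9, -2.15 for Ly96, -2.35 for Tlr4, -2.47 for Ticam1, -3.89 for Tlr3 and -4.09 for Lbp, the lowest. The nearest list depended on the gene. Tlr2 moved farther than the leukocyte list by 0.49 and than the neutrophil list, which was higher by 2.31, by 1.01. Tlr1 (-0.29), Myd88 (-0.34) and Tlr9 (-0.51) moved closer to the neutrophil list than to these other lists. The endothelial list was lower by 0.72, and Lbp and Tlr3 moved close to it, with differences of -0.09 and 0.12. Within the LPS group, LPS 1 was the highest library for 5 genes (Tlr4, Tlr1, Tlr2, Tlr9 and Myd88) and the lowest for Lbp and Tlr3, and it had the highest leukocyte sum (1534 FPKM) and the lowest endothelial sum (1434 FPKM). LPS 6, with the lowest leukocyte sum (632 FPKM), was the lowest library for 3 genes (Cd14, Tlr1 and Myd88) and the highest for Tlr3. Other extremes did not follow these sums, since Tlr4 and Tlr2 were lowest in LPS 5 and Tlr9 in LPS 2, whose leukocyte sums of 1179 and 1438 FPKM were above that of LPS 3 (1038 FPKM). The part of leukocytes carried through the isolation in the change of these genes was not tested.

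**Figure D4:**
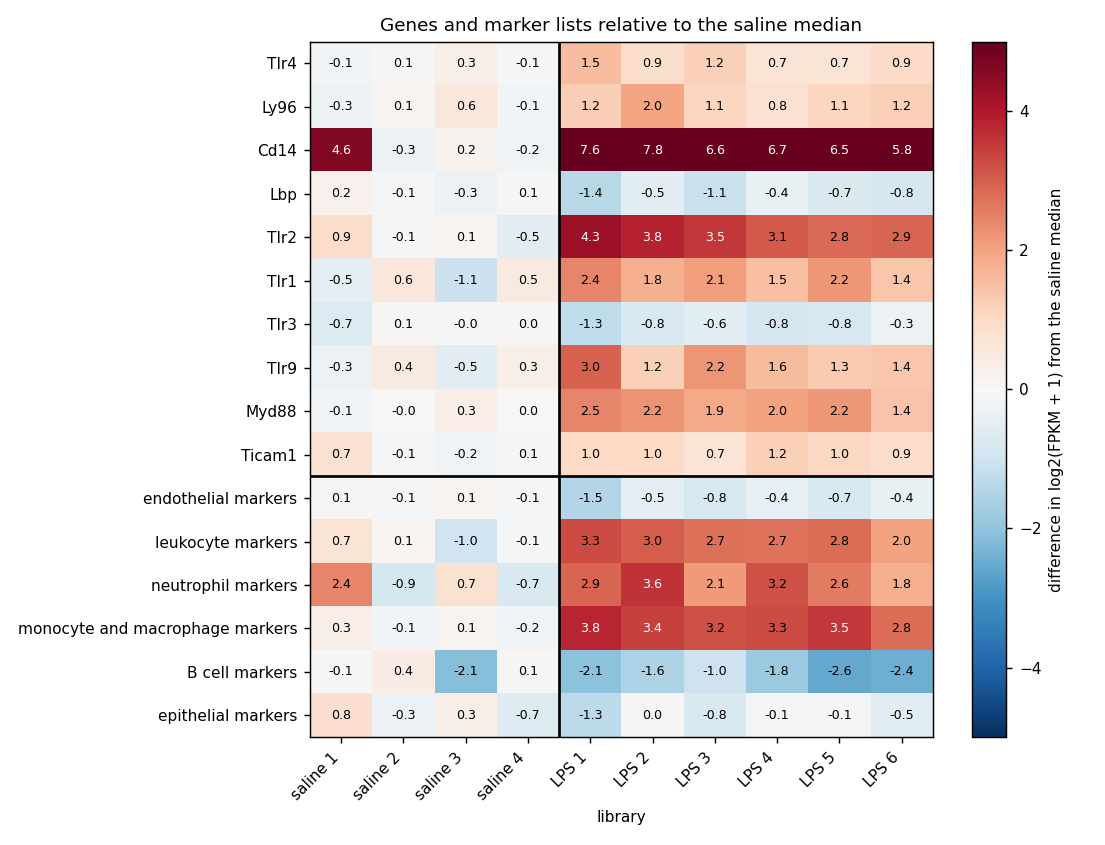
Difference in log2(FPKM + 1) from the saline median for the 10 genes (upper rows) and for the mean over 6 marker lists (lower rows) in each saline and LPS library; the colour scale ends at 5 in either direction, and the numbers are printed in the cells. Cd14 and the neutrophil markers are high in saline 1, the leukocyte, neutrophil, and monocyte and macrophage lists are higher in all LPS libraries than in saline 2 to 4, and Lbp and Tlr3 are below the saline median in all LPS libraries, as the endothelial markers are.

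Other genes of the pathway were described with 7 lists, beside 11.9% of all genes tested called higher and 6.79% called lower. Of the 7 remaining mouse Toll-like receptors, 4 were tested and all 4 rose, with a median log2 fold change of 2.73. Tlr5, Tlr11 and Tlr12 were under the filter of a mean of 0.5 FPKM over both groups. Genes below 0.5 FPKM in saline, such as Tlr6, passed that filter only through their LPS values. Counts and medians of lists that hold such genes therefore depend partly on the change itself. The 3 largest rises were in Tlr13, a receptor for bacterial ribosomal RNA, with means of 1.86 ± 2.19 and 40.3 ± 12.1 FPKM (SD, n = 4 and 6), in Tlr7, a receptor for single-stranded RNA, from 0.995 ± 0.26 to 19.6 ± 5.06 FPKM, and in Tlr6, the other partner of TLR2, from 0.498 ± 0.429 to 5.54 ± 1.88 FPKM. Of 9 tested genes that bind, take up or degrade LPS, 7 rose and 0 fell, with a median of 2.13. Aoah and Msr1, at 0.131 and 0.423 FPKM in saline, passed the filter only through LPS. The largest rises were in Itgam (5.08) and Itgb2 (4.31), the chains of the integrin CR3 of myeloid cells, and in Msr1 (4.42), a scavenger receptor of macrophages. Cd36, a scavenger receptor that is abundant in these libraries, was at 776 ± 67.3 FPKM in saline (SD, n = 4) and 499 ± 114 FPKM in LPS (SD, n = 6), with groups apart and a difference of -0.67 on the log2 scale (limma adjusted p = 0.0218). Among 7 chaperones and transporters of the receptors, 2 rose, Slc15a3 (2.72) and Unc93b1 (1.13), the carrier of endosomal Toll-like receptors, and the median was 0.60.

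Downstream of the receptors the counts are given beside the same 11.9% of all genes called higher, and no test compared the lists. Of the 3 further adaptors tested, Pik3ap1 (3.34) and Ticam2 (1.92), the bridge between TLR4 and TRIF, rose, and the median was 1.92. Ticam2, at 0.206 FPKM in saline, passed the filter only through LPS. Of 14 kinases and ubiquitin ligases tested next to the adaptors, 2 rose, Ikbke (4.52) and Irak2 (1.11), while 12 were not called, and the median was 0.43. Of 10 genes that restrain the pathway, 6 rose, with Irak3 (3.31), Tnfaip3 (2.79) and Zc3h12a (2.43) at the top and a median of 1.29, and Sigirr, which restrains the receptors at the membrane, was at -0.84 on the log2 scale (limma adjusted p = 0.00156). Of 15 tested genes induced by MyD88 or TRIF, 13 rose, led by Cxcl2 (6.08), Ccl2 (5.55) and Tnf (5.11), with a median of 3.35. Ccl2, Tnf, Il6 and Cxcl1 were under 0.5 FPKM in saline and passed the filter only through LPS, so this count and median depend partly on the change itself. In none of the 7 lists was a gene called lower. Itgam, Itgb2, Msr1, Tlr13, Tlr7 and Irak3 are known from myeloid cells, whose markers rose as given above, and the part of those cells in the lists was not tested.

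**Figure D5:**
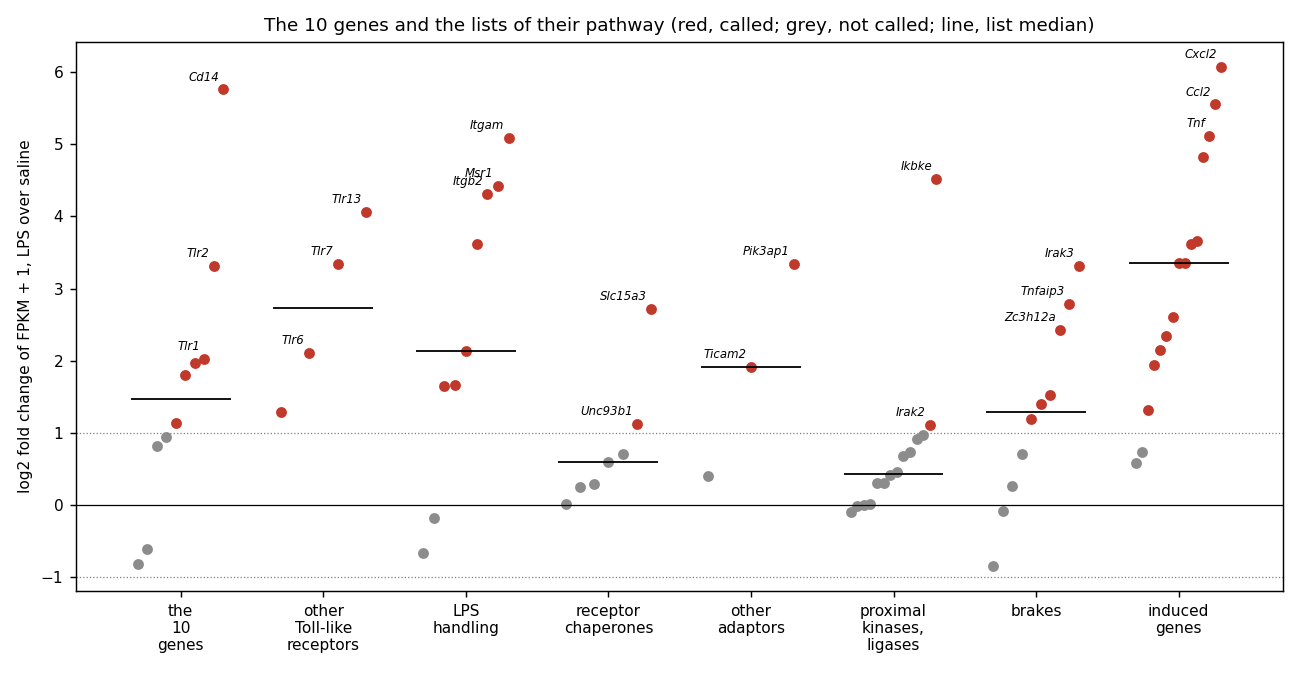
Log2 fold change of FPKM + 1 in LPS over saline for each tested gene of the 10 and of the 7 pathway lists (points; red, called; grey, not called), with the list median as a line and dotted lines at 1 in either direction. The medians run from 0.43 for the proximal kinases and ligases to 3.35 for the induced genes, with 1.47 for the 10 genes. Some genes of the pathway lists passed the filter only through their LPS values.

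The genes most like 9 of the 10 across the saline and LPS libraries were found by the root mean square (RMS) difference in log2(FPKM + 1) after each gene was centred on its mean over the 10 libraries, among 7765 genes whose mean was 5 FPKM or more. Nearest to Tlr4 were Rffl (RMS 0.145), Trim30a and Gucd1, and nearest to Ly96 were Ier5 (0.214), Rtp4 and Isg20. Cd14 had no neighbour as near, and Acod1 (0.433), Cxcl2 and Il1r2, all with high values in activated myeloid cells, came closest. For Tlr2 they were Plek (0.270), Samsn1 and Apobr, for Tlr1 Lrmp (0.189), A630001G21Rik and Sash3, and for Tlr9 Rasgrp1 (0.246), Adcy7 and Prkcb. Ticam1 was nearest to Rrbp1 (0.110), Gm9531 and Gdi2. The genes with lower values in LPS had other neighbours, Cd81 (0.172), Clu and Camk2n1 for Lbp, and Thsd1 (0.126), Gimap8 and Armcx1, of which Thsd1 and Gimap8 are known from endothelium, for Tlr3.

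In the second experiment the genotypes were compared under LPS. Fgfr1 itself was at 2.90, 2.91 and 2.60 FPKM in loxP/loxP 1 to 3 and at 0.682, 1.41 and 1.15 FPKM in iΔEC/iΔEC 1 to 3, so the groups did not overlap (log2 fold change -0.88; exact permutation p = 0.1, as small as 3 against 3 libraries allow; limma adjusted p = 0.962). Of the 10 genes, 0 were called, as were 0% of the 14945 genes tested by limma, and 0 had an unadjusted p under 0.05, where 4.42% of all genes did. A fit with the replicate number as a block rests on a pairing that the labels do not state. With it, 0 genes were again called and the genes at an unadjusted p under 0.05 numbered 1154 in place of 661, Tlr1 and Tlr9 among them. In none of the 10 were the genotypes apart, against 10.1% of all genes (6.02% higher and 4.09% lower). The median log2 fold change of the 10 was -0.06 beside 0.01 over all genes.

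All 10 genes were nonetheless well measured at this dose. Cd14 was at 221, 318 and 449 FPKM in loxP/loxP 1 to 3 and at 127, 311 and 293 FPKM in iΔEC/iΔEC 1 to 3, on 3278 to 12810 reads. iΔEC/iΔEC 1 was the lowest library, and the other libraries of the genotypes overlapped. For Cd14 the log2 fold change was -0.48 (95% interval -1.49 to 0.52, limma adjusted p = 0.962). It was -0.07 without iΔEC/iΔEC 1, -0.23 without loxP/loxP 3 and -0.74 without loxP/loxP 1. Each of these fits left the same-numbered library of the other genotype in place. Cd14, Tlr1 and Tlr9 were lower and Lbp higher in iΔEC/iΔEC in 3 of 3 same-numbered pairs (exact sign-flip p = 0.25 for each, as small as 3 pairs allow). In the blocked fit the 95% interval was -0.99 to 0.03 for Cd14, -0.70 to 0.10 for Tlr2, -0.58 to -0.09 for Tlr1 and -0.79 to -0.01 for Tlr9, so that those of Tlr1 and Tlr9 lay below 0, with limma adjusted p over all genes of 0.593 and 0.642. The labels state no pairing. Same-numbered libraries were taken as pairs because they deviated together in these data, and the blocked intervals hold only if that pairing is right. Tlr4 was at 6.66, 6.30 and 11.8 FPKM in loxP/loxP 1 to 3 and at 5.98, 7.56 and 8.54 FPKM in iΔEC/iΔEC 1 to 3. The high library was loxP/loxP 3, and the log2 fold change was -0.11 (95% interval -0.68 to 0.47). Without the block, the narrowest intervals were those of Ticam1 (0.05, from -0.27 to 0.37) and Ly96 (0.06, from -0.27 to 0.40), followed by Myd88 (-0.01, from -0.42 to 0.41) and Lbp (0.28, from -0.18 to 0.73). For these 4 genes a change as large as the fold limit of 1 lay outside the interval, as it did for Tlr4, Tlr3 (0.13, from -0.44 to 0.70) and Tlr1 (-0.33, from -0.88 to 0.21). Tlr2 (-0.30, from -1.20 to 0.59) and Tlr9 (-0.40, from -1.22 to 0.42) had wider intervals, which reached past -1 without the block and not with it. loxP/loxP 2, with the highest hepatocyte marker sum of the 6 libraries (16.7 FPKM, Alb the most abundant), had the lowest Lbp value, 8.75 FPKM. That is 1 library, and the cell of origin of the Lbp reads was not tested here either.

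The markers were also set beside the libraries at the ends of the range. loxP/loxP 3 was the highest of the 6 libraries for Tlr4, Cd14, Tlr2 and Tlr9, and it had the highest monocyte and macrophage sum, 2739 FPKM, of which Lyz2 gave 2490 FPKM, but it was the lowest for Ly96, Myd88 and Ticam1. iΔEC/iΔEC 1 was the lowest for the same 4 genes, and it had the lowest leukocyte sum (306 FPKM) and the highest endothelial sum (3642 FPKM), and was the highest for Lbp and Tlr3. The leukocyte sum was highest in iΔEC/iΔEC 2 (677 FPKM, and 551 FPKM in loxP/loxP 3), as was the mean log2(FPKM + 1) over the monocyte and macrophage list (5.59, and 5.48 in loxP/loxP 3). The highest values of Ly96 and Ticam1 were in loxP/loxP 1 and those of Tlr1 and Myd88 in loxP/loxP 2, and the lowest values of Tlr1 and Tlr3 were in iΔEC/iΔEC 3 and iΔEC/iΔEC 2. Tlr2 was at 74.3 FPKM in loxP/loxP 3 and at 24.4 FPKM in iΔEC/iΔEC 1, and Tlr9 at 7.49 and 1.87 FPKM. Between the genotypes, 0 marker genes of any list were called, and the sums of the endothelial, leukocyte, neutrophil, and monocyte and macrophage lists overlapped. The T and NK cell sum was apart, at 47.7 to 66.8 FPKM in loxP/loxP and 33.4 to 37.4 FPKM in iΔEC/iΔEC mice, with Gzma the most abundant. The epithelial list had the largest mean difference of the marker lists, -0.82 in mean log2(FPKM + 1), with sums of 933 to 2948 FPKM and 432 to 1115 FPKM, and 4 of its 10 genes had an unadjusted p under 0.05. The part of these cells in the levels of the 10 genes was not tested. None of the 5 ratios passed the test between the genotypes (adjusted exact permutation p = 1 for each). With same-numbered libraries taken as pairs, Cd14:Tlr4 was lower in iΔEC/iΔEC in 3 of 3 pairs (33.1 and 21.2, 50.5 and 41.1, 38.2 and 34.3 in loxP/loxP and iΔEC/iΔEC), and so was Tlr2:Tlr4 (5.12 and 4.08, 5.83 and 5.16, 6.31 and 6.03). The exact sign-flip p was 0.25 for both. In the 7 pathway lists 0 genes were called, and only Tnf, Icam1 and Sele had an unadjusted p under 0.05, where 4.42% of all genes tested did. Tnf had means of 38.3 FPKM in loxP/loxP and 25.5 FPKM in iΔEC/iΔEC mice (log2 fold change -0.57), and Sele, an adhesion molecule for leukocytes, 37.2 and 70.5 FPKM (1.02), each with a limma adjusted p of 0.962. Icam1, an adhesion molecule of inflamed endothelium, ranged from 129.8 to 266 FPKM in loxP/loxP and from 334 to 382 FPKM in iΔEC/iΔEC mice, with groups apart, a log2 fold change of 0.90 and a limma adjusted p of 0.962. Sele, Selp, Tbk1, Map3k7, Nfkbia, Tmed7 and Tirap of these lists were also apart and higher in iΔEC/iΔEC, where 6.02% of all genes were (10.1% in either direction). With Icam1, 3 of 15 induced genes tested were apart and higher, 2 of 14 kinases and ligases, 1 of 10 restraining genes, 1 of 7 chaperones and transporters and 1 of 3 adaptors. It was 0 of 4 other Toll-like receptors and 0 of 9 genes that bind, take up or degrade LPS. In these lists 0 genes were apart and lower.

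Set beside the first experiment, with no test because the tables were normalized separately and dose and genotype differ, the loxP/loxP libraries at 2 mg/kg LPS had mean levels of 329 FPKM for Cd14 and 48.4 FPKM for Tlr2, against 498 and 58.8 FPKM at 10 mg/kg. Tlr4 (8.24 and 7.45 FPKM) and Ticam1 (7.25 and 7.31 FPKM) had close means in both, and Myd88 (26.4 and 48.1 FPKM) and Tlr1 (6.56 and 12.6 FPKM) had lower means at the lower dose. The leukocyte sums were 468 to 610.4 FPKM and 632 to 1534 FPKM in these groups, and the monocyte and macrophage sums 1141 to 2739 FPKM and 1869 to 4026 FPKM, and their part in these means was not tested. Lbp was at 11.7 FPKM and Tlr3 at 7.60 FPKM at 2 mg/kg, between their saline means of 13.8 and 8.60 FPKM and their means at 10 mg/kg of 7.59 and 5.32 FPKM. In loxP/loxP mice Cd14, Tlr2, Myd88 and Lbp led the order of levels, each apart from its neighbour below except Lbp, whose range overlapped that of Tlr4.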

How the data were processed

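RNA-seq of 16 libraries of CD31-selected, CD45-depleted mouse lung cells was used. Per the study's methods, reads were sequenced on a NovaSeq and aligned to GRCm38, and the submitters' processing notes name HISAT2 2.0.5 and featureCounts 1.5.0-p3; trimming, strandedness, the treatment of multiply aligned reads and the annotation release are not given in the sources used here. The authors deposited FPKM and gene lengths for 54532 genes, in 1 table per experiment. FPKM times length gave whole read numbers for 100% of values (tolerance 0.05 reads), which are not independent molecules. The 11 symbols that differed between the tables were taken from the first.

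FPKM was scaled by median-of-ratios factors (largest change 0% in the first and 0.18% in the second experiment), so the deposited values were already on that scale. Then log2(FPKM + 1) was compared with limma 3.58.1 (R 4.3.3, lmFit and eBayes with trend) within each experiment, over genes whose mean was 0.5 FPKM or more, with Benjamini-Hochberg adjustment. The script was tested on simulated data. Exact permutation tests (two-sided) served for single genes and ratios. P-values measure the spread between libraries, of which nothing says more than that they are separate samples. Tables were made with Python 3.11.15, pandas 2.3.3 and numpy 2.4.6, and figures with matplotlib 3.10.9. Positions are those of the deposited tables, and 9 of the 10 genes have the same start and end in GENCODE M21 (not Cd14).

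The genes and lists were chosen with earlier results of these data known. Named beside the 10 genes are Fgfr1, the 3 largest called changes of each pathway list, the 3 nearest genes of each of the 10 (those of Myd88 are not reported here) and the most abundant gene of each marker list; Pecam1, Ptprc, Kdr, Tek, Tie1, Itgax, Cd36, Sigirr, Tnf, Icam1, Sele, Acaa1a and Gm45542 were named after their values were seen. Further marker lists were epithelial (2 of 10 fell, Sftpc most abundant), T and NK cell (0 of 5 tested called), fibroblast (0 of 6), mural (2 of 7 fell), erythroid (2 of 2 rose) and hepatocyte (0 tested) in LPS over saline, where 11.9% of all genes were called higher and 6.79% lower. Same-numbered libraries of the second experiment deviated together (r = 0.248, 0.178 and 0.187 over genes), so their numbers were taken to pair them; the labels do not state a pairing.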

Additional observations from a re-analysis of the deposited data

Results flagged for a closer look

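In 20 group values (10 genes in the saline and the LPS group), 3 had a library farther from its nearest neighbour than Dixon's 95% limit allows on the log2(FPKM + 1) scale, where chance gives about 1 in 20. In saline 1 Cd14 reached 95.7 FPKM, while saline 2 to 4 ranged from 2.16 to 3.42 FPKM, and Tlr3 was only 5.57 FPKM, while saline 2 to 4 ranged from 9.14 to 9.96 FPKM. Without saline 1 the log2 fold change with LPS was 6.94 for Cd14 and -0.78 for Tlr3. Ly96 was at 18.2 FPKM in LPS 2, beside 7.34 to 10.4 FPKM in the rest, and without that library its log2 fold change was 0.98 and under the fold limit. The cause of these values was not tested.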

How the results depend on the processing

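Depth limits Tlr9, Tlr1 and Ly96 most, with saline read numbers as low as 23, 41 and 42. Genes called higher and lower in LPS numbered 1768 and 1011, 4342 and 206 with scaling on the endothelial markers, which moved the median of all genes to 0.57, and 4399 and 3529 with no fold limit. Lower calls numbered 1840 with a pseudocount of 0.1, 1859 with scaling on total FPKM (1192 higher), which moved the median to -0.26, 1326 with quantile normalization (1366 higher), and 2008 with limma-voom on read numbers; voom took median-of-ratios library sizes in place of the planned TMM, a choice made after seeing the data. Leaving out 1 library gave 1641 to 1947 higher and 910 to 1107 lower. Of the 10 genes, 5 (total FPKM) to 8 (endothelial scaling, voom, no fold limit) were called higher over all alternatives, and those called lower numbered 1 with quantile normalization, 1 with total FPKM and 2 with no fold limit. Cd14, Tlr2, Tlr1, Myd88 and Tlr9 kept their calls under every alternative run. Ticam1 was called also with endothelial scaling (1.40) and Tlr4 with it (1.52). Under that scaling Tlr3 reversed to 0.014, below the shifted median. The exact p of Tlr3 was above 0.05 in 7 of the 10 fits that left out 1 library (0.0556 to 0.0714).

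No gene was called in iΔEC/iΔEC over loxP/loxP under any alternative, and the genes at an unadjusted p under 0.05 numbered 403 to 1072 without 1 library and 1131 without the filter. Endothelial scaling reversed Ly96 (-0.16), Tlr3 (-0.10) and Ticam1 (-0.17), and total FPKM reversed Myd88 (0.0042). Without 1 library the log2 fold changes that crossed 0 ranged from -0.25 to 0.15 (Tlr4), -0.067 to 0.15 (Ly96), -0.54 to 0.049 (Tlr2), -0.087 to 0.37 (Tlr3), -0.13 to 0.14 (Myd88) and -0.070 to 0.16 (Ticam1), those that kept their sign from -0.74 to -0.065 (Cd14), -0.64 to -0.089 (Tlr9), -0.55 to -0.17 (Tlr1) and 0.099 to 0.44 (Lbp), and the ratio differences from -0.24 to 0.42 (Ly96:Tlr4), -0.29 to 0.58 (Tlr2:Tlr1) and -0.080 to 0.26 (Ticam1:Myd88). In LPS over saline Ly96:Tlr4 ranged from -0.0072 to 0.31. The cause of these changes was not tested. Numbers did not pair the libraries of the first experiment (r from -0.209 to 0.0972), where the replicate block gave 1925 higher and 1063 lower and Tlr4 was called (1.02); the block changed no other call of the 10. The sign-flip test of the pairs in the second experiment was added after seeing the data. The planned edgeR or DESeq2 test on the recovered read numbers was not run, and limma-voom was the one test of those numbers.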
